A study of Mus musculus with 2 samples.

Results

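The 9 fatty acid binding protein genes of the mouse that were named by symbol (Fabp1, Fabp2, Fabp3, Fabp4, Fabp5, Fabp6, Fabp7, Fabp9 and Fabp12) were followed through single medullary thymic epithelial cells (mTECs). They were 9 of 55487 genes counted, and all 9 had at least 100 unique molecular identifiers (UMIs) in the cells assigned to a sample. Each member was described across classes of cells defined by marker genes and across cells of mice given spermidine or phosphate-buffered saline (PBS).

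Fatty acid binding proteins are small cytoplasmic carriers that hold long-chain fatty acids and other hydrophobic molecules, such as bile acids, inside the cell. Each is best known from its own tissues, among them liver, intestine, heart, fat, skin, brain and testis. Medullary thymic epithelial cells transcribe many such tissue-restricted genes, in part through the regulator Aire, and display the products to developing T cells. After the Aire-expressing stage some of them take on programmes that resemble tuft cells, microfold cells, keratinocytes and other peripheral types.

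The spermidine group comprised 2 hashed samples from wild-type female C57BL/6J mice aged 4 weeks injected intraperitoneally each day for 7 days with 15 mg/kg spermidine dissolved in PBS. The PBS group comprised 2 hashed samples from mice of the same strain, sex and age that received PBS alone. All 4 samples held mTEChi and post-Aire mTEClo cells, sorted after depletion of CD45+ cells, and were read together in 1 droplet-based run of 10x Genomics 3' v3 chemistry. The labels do not say whether replicates were separate mice or pools. The p-values therefore cover the spread between hashed samples alone, which may be technical.

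The spermidine samples held 1374 and 1007 assigned cells, against 1335 and 993 in the PBS samples, with 17668782 to 25673749 UMIs a sample. Clustering without the Fabp genes gave 15 classes, of which 10 had at least 20 cells in each sample. Levels are given as CPM (the UMIs of a gene scaled to a common total, counts per 1e+06 UMIs) of the summed cells of a class in a sample, and every mean ± SD is over the 4 samples (n = 4). Aire averaged 909 ± 36.7 CPM in Aire-stage cluster 2 and 419.9 ± 26.9 CPM in Aire-stage cluster 3, and 95.5 ± 53.7 CPM in microfold-like cells. Cluster 4 carried Aire at 926 ± 53.1 CPM and markers of dividing cells. Over all clustered cells, hashtag doublets and unassigned cells included, 11 of 12 such markers were over 2-fold higher there. Hemoglobin genes led it in those cells, and it was left unnamed. Counted likewise, 6 of 12 Aire-stage markers were over 2-fold higher in Aire-stage cluster 2, 4 in Aire-stage cluster 3 and 5 in cluster 4. None of the 12 was among the 10 leading genes of either Aire-stage cluster. In assigned cells alone, 7 erythroid markers summed to 16.6 to 255 CPM in cluster 4, against 221 to 455 CPM in Aire-stage cluster 2. Cluster 13, led by Pth and kallikrein genes, was unnamed too. Thymocyte-like cells, used below as a background for detection, themselves held Aire at a mean of 307 CPM.

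Of the cells of a sample, Aire-stage cluster 2 held 19.9% and 18.5% with spermidine, against 9.66% and 13.1% with PBS. Sorting and pooling can set such shares, and their part was not tested.

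Of the 9 members, 4 had a leading class whose lowest sample lay above the highest sample of each of the other 9 fitted classes: Fabp1, Fabp4 and Fabp5 in microfold-like cells and Fabp6 in Aire-stage cluster 2. The same held for 24.9% of the 18906 genes with at least 100 UMIs. The count of 4 rested on how cells were assigned and classed. It was 1 (Fabp1, against 22.1% of genes) when 2 abundant hashtags of no labelled sample were also used to call doublets, and 2 (Fabp1 and Fabp5, against 23.6%) under a margin rule for the hashtags. It was the same 4 genes with counts capped per cell (27.0% of genes), at a coarser clustering (34.0%) and with the Fabp genes allowed into the clustering (25.3%). The coarser clustering left no separate cluster 13 or enterocyte/hepatocyte-like class. These had been the next classes of the 4 genes, so the count there was reached against fewer classes. With the Aire-stage clusters merged it was again 4 (25.6% of genes), but Fabp6 overlapped cluster 13 through 1 cell described below and Fabp12 took its place. That merged reading, and the decisions to keep the Aire-stage clusters apart and to leave cluster 4 unnamed, were made after the values were seen.

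**Figure D1:**
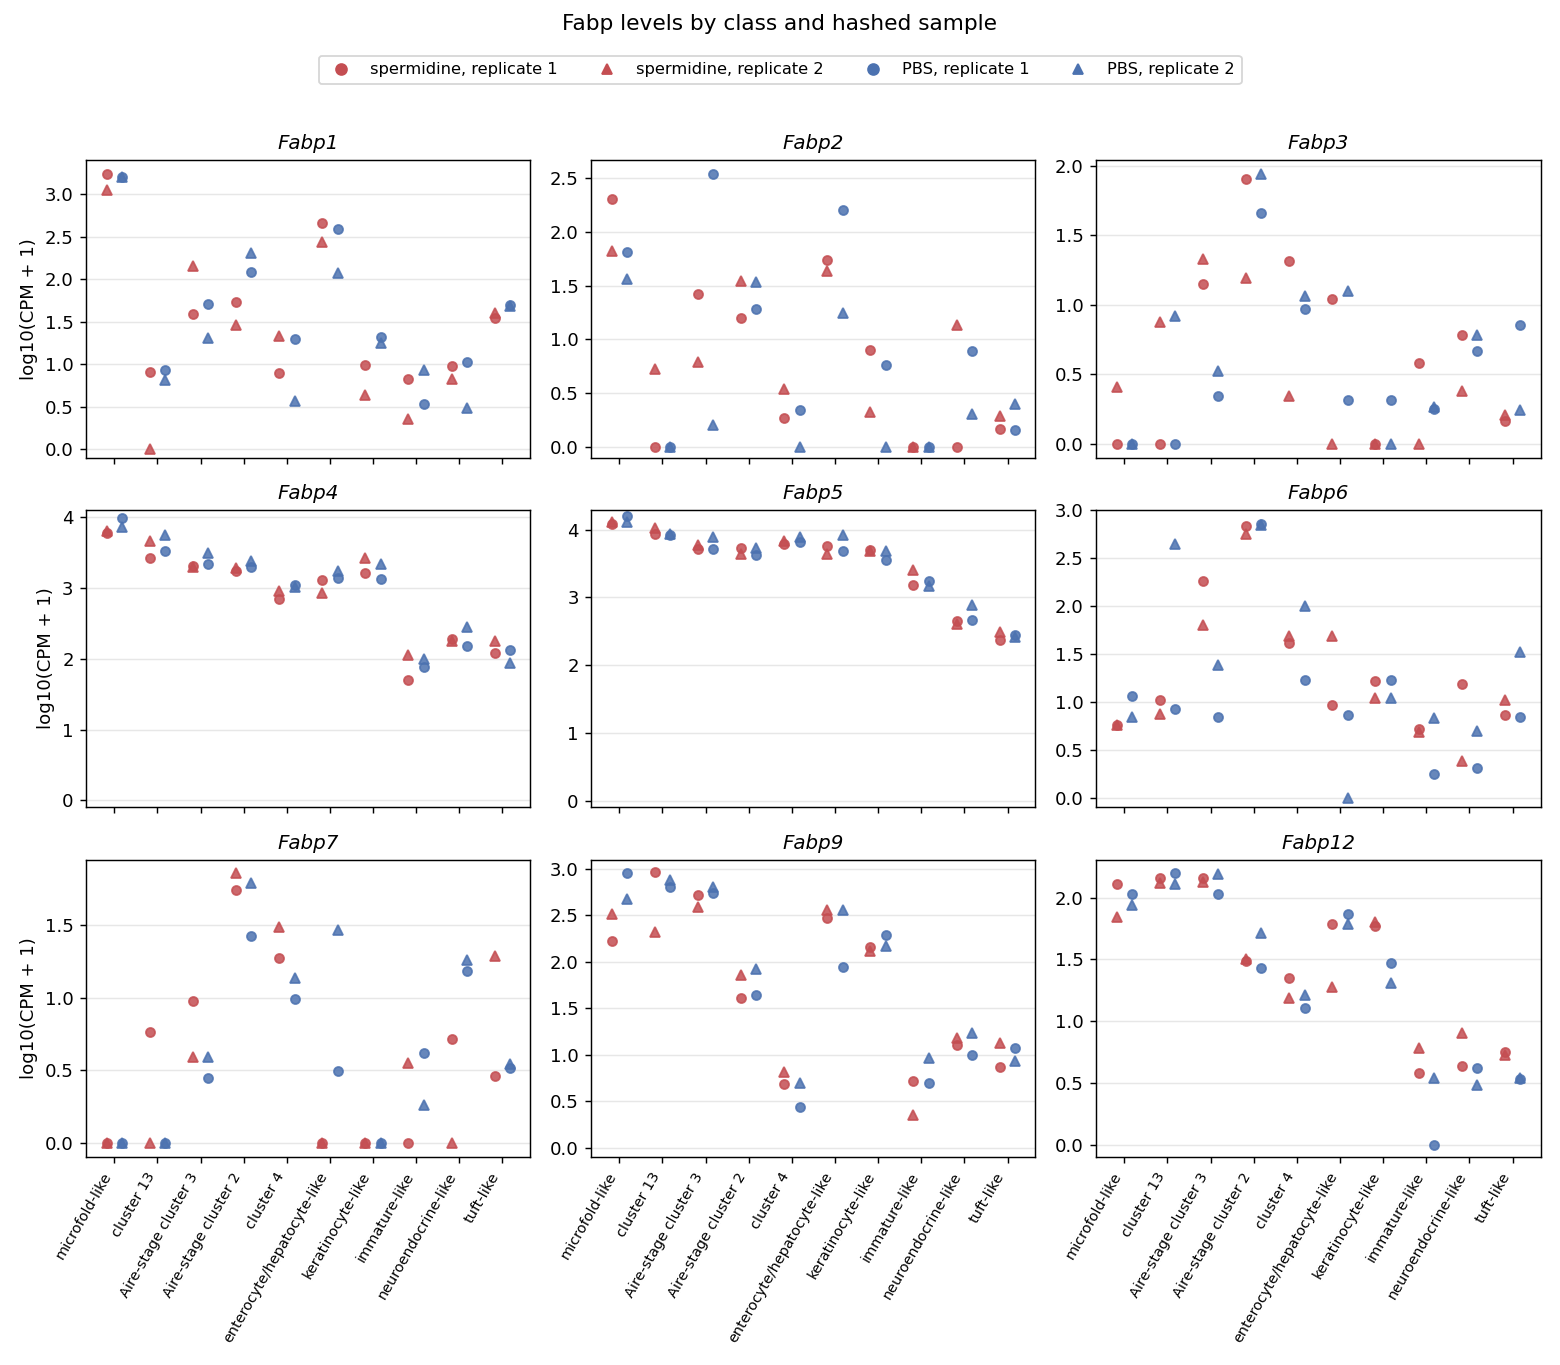
Level of each of the 9 genes in 10 classes, as log10(CPM + 1) on a vertical axis that differs between panels, 1 point per hashed sample (red spermidine, blue PBS). Fabp4 and Fabp5 had UMIs in all 10 classes, in some no more often than thymocyte-like cells, and were highest in microfold-like cells, Fabp1 stood out in microfold-like cells at 1109.9 to 1734 CPM, and Fabp6 in Aire-stage cluster 2 at 572 to 730 CPM.

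The bases before the start of transcription are shown for Fabp1 and Fabp6, the members with an entry whose leading class overlapped no other. Both come from RefSeq on GRCm38.p6. Capitals mark matches to any of 4 motifs searched on both strands. These were the TATA box (TATAAA), the nuclear receptor half-site (AGGTCA), a half-site of hepatocyte nuclear factor 1 (GTTAAT) and the CCAAT box. No motif match overlapped another. Fabp1 is read from chr6:71199629-71199878 on the plus strand and Fabp6 from chr11:43601563-43601812 on the minus strand, each with 250 bases. The GENCODE model of Fabp1 starts inside its stretch.
Fabp1: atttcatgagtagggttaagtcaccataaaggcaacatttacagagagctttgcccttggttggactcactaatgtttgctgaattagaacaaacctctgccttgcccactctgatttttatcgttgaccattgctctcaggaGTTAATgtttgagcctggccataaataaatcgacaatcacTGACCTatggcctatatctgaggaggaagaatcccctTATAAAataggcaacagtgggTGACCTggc
Fabp6: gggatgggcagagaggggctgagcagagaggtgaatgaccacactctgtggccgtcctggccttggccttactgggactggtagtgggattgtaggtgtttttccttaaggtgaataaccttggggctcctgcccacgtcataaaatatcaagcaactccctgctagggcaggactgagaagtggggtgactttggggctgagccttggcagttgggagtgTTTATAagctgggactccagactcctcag
Counted from the start, the match to TATAAA in Fabp1 began at -30. The nuclear receptor half-site lay on the other strand at -67 and -9, and the match to GTTAAT began at -107. In Fabp6 the TATA box letters lay on the other strand at -29, and the other motifs had no match in these letters. Among 32851 RefSeq windows of 300 bases (250 before and 50 after the start), 13.6% held the TATA box letters on either strand, 16.3% the nuclear receptor half-site, 7.1% the nuclear factor half-site and 37.4% the CCAAT box. The full windows of Fabp1 and Fabp6 held 45% and 55.3% G and C, against a median of 52.7%. Of the other members, Fabp2, Fabp3 and Fabp7 had an entry.

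Fabp1 encodes the liver-type binding protein of hepatocytes and enterocytes (chromosome 6, 71199827 to 71205023, plus strand, GRCm38). Its level in microfold-like cells was 1734 and 1109.9 CPM in the spermidine samples, against 1596 and 1573 CPM in the PBS samples. All 4 lay above the enterocyte/hepatocyte-like cells, at 461 and 274 CPM with spermidine and 383 and 117 CPM with PBS. The class means, 1503 ± 272 and 309 ± 149 CPM, differed 4.87-fold. Microfold-like cells carried some liver and intestinal markers themselves: 7 of the 15 on that list were over 2-fold higher there than in other cells, against 14 of 15 in the enterocyte/hepatocyte-like cluster.

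In microfold-like cells thinned to 5000 UMIs each, Fabp1 was detected in 69.4% and 60% of cells of the spermidine samples and in 63.3% and 60% of the PBS samples (of 49 and 35 cells with spermidine and 49 and 45 with PBS that were deep enough, among 60 and 39 and 58 and 55 in the class). The mean share was 63.2%, against 2.79% in thymocyte-like cells, which should lack the gene (median depths 11896 and 6556 UMIs). Of thymocyte-like cells only 29 and 24 with spermidine and 18 and 13 with PBS were deep enough, so background shares rest on few cells. Without thinning 157 of 212 microfold-like cells held the transcript. A second pattern appeared in tuft-like cells, where a mean of 16.7% of thinned cells held Fabp1 but at few copies: the level was 33.8 and 38.5 CPM with spermidine and 48.2 and 47.2 CPM with PBS, and 13.3% of its UMIs lay in cells with 10 or more. In Aire-stage cluster 2, 90.4% of Fabp1 UMIs lay in 21 of 719 cells.

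**Figure D2:**
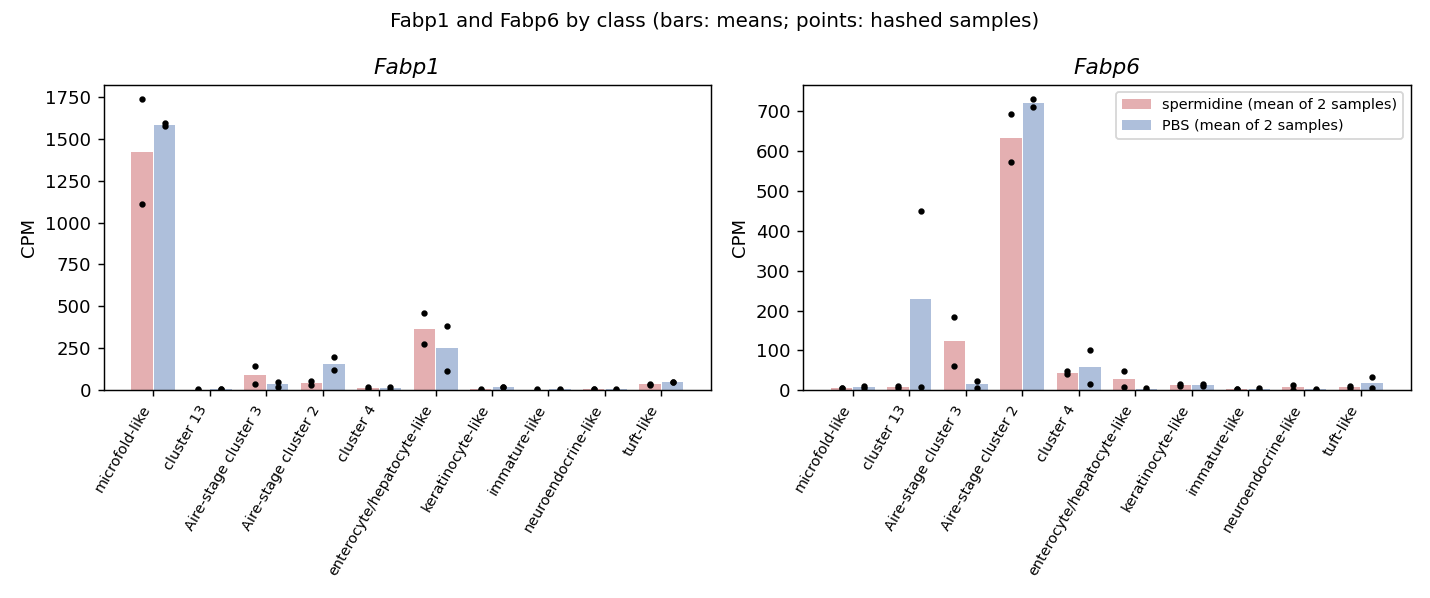
Fabp1 (left) and Fabp6 (right) in CPM by class, with bars for the mean of 2 hashed samples (red spermidine, blue PBS) and black points for the samples. Microfold-like cells led for Fabp1 in all 4 samples and Aire-stage cluster 2 for Fabp6, and 1 PBS sample of cluster 13 reached 450.2 CPM of Fabp6.

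Fabp2 encodes the intestinal binding protein (chromosome 3, 122895072 to 122899506, plus strand). Its highest class mean, 94.7 ± 169 CPM in Aire-stage cluster 3, came mostly from 1 cell. The samples stood at 25.6 and 5.21 CPM with spermidine and 347 and 0.582 CPM with PBS, and 561 of the 658 UMIs came from a single cell of PBS replicate 1. Without that cell microfold-like cells led, at 203 and 65.8 CPM with spermidine and 64.4 and 35.6 CPM with PBS when all their cells were counted, followed by enterocyte/hepatocyte-like cells at a mean of 67.8 ± 62.8 CPM. The ranges of those classes overlapped. Detection in thinned cells of Aire-stage cluster 3, 1.75%, was no higher than the 2.79% in thymocyte-like cells. Immature-like cells had no Fabp2 UMI, which allows a level of up to 0.757 CPM (3 counts over the class, counting error only).

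Within a class, Fabp2 was found more often in cells that held Fabp1. In thinned microfold-like cells it was detected in 17.7% of 113 cells with Fabp1 and in 7.69% of 65 cells without. In enterocyte/hepatocyte-like cells the shares were 25.0% of 44 cells with Fabp1 and 6.36% of 110 cells without. Cells are not replicates, and no test was made of these shares.

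Fabp6 encodes the ileal bile acid binding protein (chromosome 11, 43596049 to 43601540, minus strand). In Aire-stage cluster 2 it stood at 694 and 572 CPM in the spermidine samples, against 730 and 711 CPM in the PBS samples (677 ± 71.2 CPM). The next class by mean, cluster 13, stood at 9.55 and 6.47 CPM with spermidine and 7.46 and 450.2 CPM with PBS, the last from 1 cell with 242 of the class's 258 UMIs. Without the top cell of each class, cluster 13 fell to a mean of 8.59 CPM, while Aire-stage cluster 2 kept 632 CPM. Aire-stage cluster 3 had 185 and 62.0 CPM with spermidine and 5.97 and 23.3 CPM with PBS, and cluster 4 had a mean of 51.1 ± 35.4 CPM. Cluster 4 held Aire at a level like that of Aire-stage cluster 2, but less Fabp6, with no overlap of samples, a contrast that rests on keeping cluster 4 apart.

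Fabp6 was present in a minority of cells at high copy. Of 719 cells of Aire-stage cluster 2, 232 held it, and the 109 cells with 10 or more UMIs carried 97.7% of its UMIs, with up to 526 in 1 cell. After thinning, the share was 22.5% and 22.2% in the spermidine samples (of 267 and 171 cells deep enough), against 22.7% and 22.0% in the PBS samples (of 119 and 118). The 4 shares nearly coincided at this depth, and thymocyte-like cells had 2.25% (median depths 22822.5 and 6556 UMIs). Thinned to 2500 UMIs they spread more, at 18.5% and 15.6% with spermidine and 12.9% and 21.1% with PBS in Aire-stage cluster 2. Without thinning, the mean share in the cluster was 32.0%. Of 5 other genes of ileal bile acid handling, 3 had their highest class mean in the same cluster, each with samples that overlapped another class. These were Slc10a2, the apical bile acid transporter, at a mean of 1.71 CPM, Nr1h4, the bile acid receptor, at 6.02 CPM, and Slc51a, a subunit of the basolateral transporter, at 34.0 CPM. Slc51b, its other subunit, was highest in enterocyte/hepatocyte-like cells at 153 CPM, and Fgf15, an ileal hormone, in cluster 13 at 14.02 CPM.

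**Figure D3:**
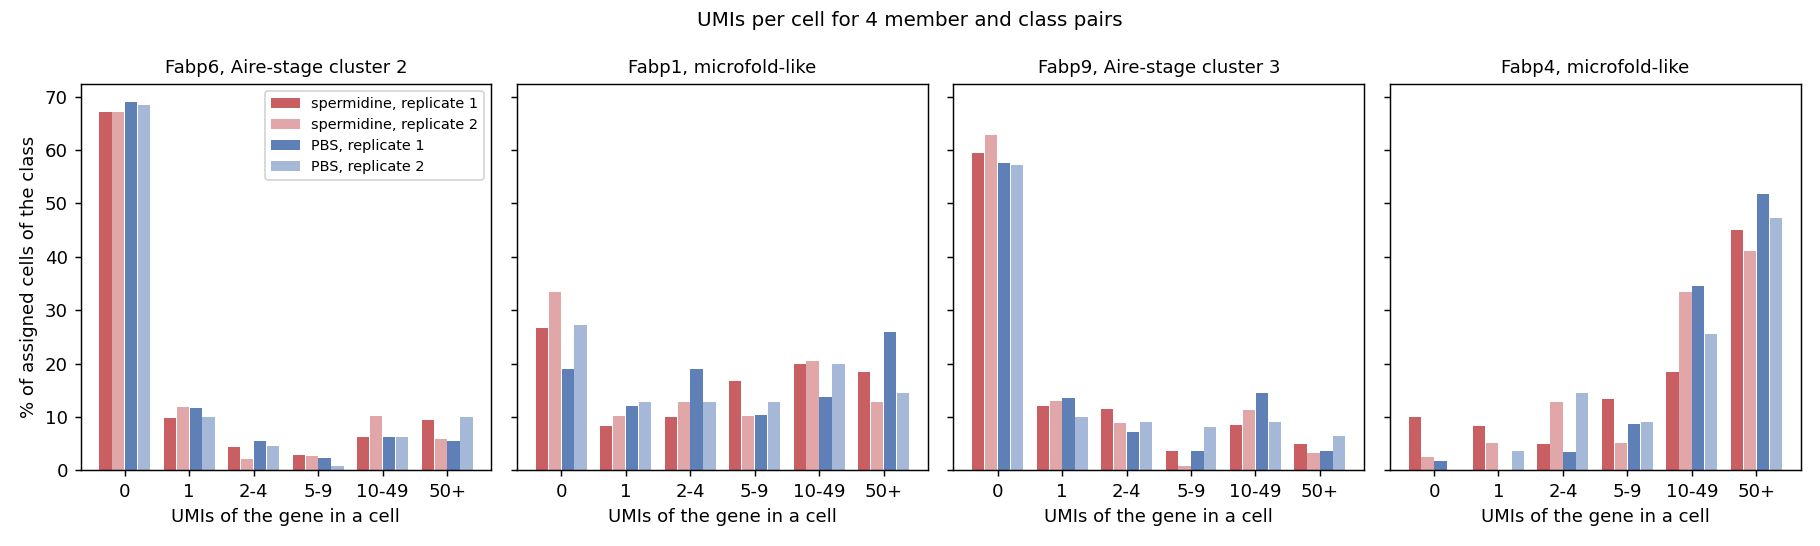
Share of assigned cells of a class (percent) by UMIs of the gene in the cell, for 4 gene and class pairs, 1 bar per hashed sample (red spermidine, blue PBS). Fabp6 was absent from most cells of Aire-stage cluster 2 and reached 10 or more UMIs in 109 of 719, while 157 of 212 microfold-like cells held 10 or more UMIs of Fabp4.

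Fabp3, the heart and muscle binding protein, was highest in Aire-stage cluster 2 at 79.8 and 14.7 CPM in the spermidine samples, against 45.1 and 87.4 CPM in the PBS samples (chromosome 4, 130308595 to 130315463, plus strand). Its lowest sample there overlapped cluster 4 and Aire-stage cluster 3, which reached 19.8 and 20.3 CPM. The 46 muscle-like cells, which are defined by skeletal muscle genes such as Myl1 and Acta1, had no Fabp3 UMI, which allows a level of up to 2.44 CPM. Both genes that flank Fabp3 overlap its ends, and of these Zcchc17 was expressed at 36.2 CPM or more in every class, so 3' reads at that end could not be assigned beyond the authors' counting.

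Fabp7, the brain-type protein of radial glia, was also highest in Aire-stage cluster 2, at 54.1 and 71.6 CPM with spermidine and 25.8 and 61.0 CPM with PBS (chromosome 10, 57784881 to 57788450, plus strand). PBS replicate 1 overlapped cluster 4, which reached 29.6 CPM. Microfold-like and keratinocyte-like cells had no Fabp7 UMI, which allows up to 0.917 and 0.598 CPM. The shares of thinned cells of Aire-stage cluster 2 with Fabp3 and Fabp7 were 6.41% and 7.76%, against 1.39% each in thymocyte-like cells. For each gene that background came from PBS replicate 1 alone, at 5.56% of 18 cells.

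Within Aire-stage cluster 2, the cells with 10 or more UMIs of Fabp6 made up 15.2% of all cells. Of these 109 cells, 6 also had 10 or more of Fabp3, 6 of Fabp1 and 1 of Fabp7, out of 28, 21 and 13 such cells in the cluster. No test was made of these overlaps. In thinned cells Fabp3 was detected in 7.28% of 151 cells with Fabp6 and in 6.49% of 524 cells without.

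Fabp4, Fabp5, Fabp9 and Fabp12 lie together on chromosome 3 with Pmp2, a myelin member of the same family. On GRCm38 Fabp5 spans 10012548 to 10016607 on the plus strand. Pmp2 (10179851 to 10183929), Fabp9 (10193621 to 10197283), Fabp4 (10204088 to 10208576) and Fabp12 (10244209 to 10301183) follow on the minus strand. Fabp9 and Fabp4 are 6804 bases apart and Fabp4 and Fabp12 are 35632 bases apart. The gene Gm37389 overlaps Fabp9 and Pmp2 and had at most 6.86 CPM as a class mean. Impa1, the next gene beyond Fabp12, had means from 36.8 to 96.0 CPM over the 10 classes, without the wide range of the Fabp genes.

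Fabp4, the carrier of adipocytes, macrophages and capillary endothelium, was highest in microfold-like cells. It stood there at 5900.0 and 6398 CPM in the spermidine samples, against 9741 and 7338 CPM in the PBS samples. Cluster 13 followed with 2635 and 4572 CPM with spermidine and 3348 and 5542 CPM with PBS, so the highest sample of cluster 13 lay just below the lowest of microfold-like cells. Aire-stage clusters 3 and 2 and keratinocyte-like cells overlapped each other at means of 2341 ± 521, 2006 ± 291 and 1941 ± 556 CPM. Neuroendocrine-like, tuft-like and immature-like cells all lay below the other 7 classes, at 199.7 ± 55.8, 128 ± 36.5 and 83.3 ± 26.5 CPM. Of these, tuft-like cells overlapped both others, while neuroendocrine-like cells lay above immature-like cells. In thinned cells Fabp4 was detected in a mean of 96.0% of microfold-like cells, against 21.9% of thymocyte-like cells (median depths 11896 and 6556 UMIs). The share in immature-like cells, 21.7%, did not exceed that of thymocyte-like cells.

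Markers of fat, endothelium and myeloid cells were examined in classes with high Fabp4. In microfold-like cells 5 of 8 adipocyte markers (Plin1, Lep, Cfd, Cidec and Plin4) had no UMI, and all 8 together summed to 9.41 to 18.96 CPM in the spermidine samples and 12.7 to 14.2 CPM in the PBS samples. The endothelial markers Cdh5, Emcn and Cldn5 had no UMI there, and all 10 summed to 9.41 to 10.7 CPM with spermidine and 6.34 to 16.6 CPM with PBS. Myeloid markers summed to 745 to 1084 CPM with spermidine and 418 to 822 CPM with PBS in the same cells, with Xcr1 and Siglech at 0 of 10. Their sums in cluster 13 were 520 to 2991 CPM with spermidine and 848 to 1687 CPM with PBS. Aire-stage cluster 2 had 817 to 961 CPM with spermidine and 881 to 1072 CPM with PBS. Myeloid-like cells themselves ranged from 1801 to 4864 CPM. In cluster 13, 4 of 8 adipocyte markers had no UMI and the sums were 4.78 to 32.4 CPM with spermidine and 9.08 to 24.9 CPM with PBS. There 6 of 10 endothelial markers had none, and the sums were 15.1 to 45.4 CPM with spermidine and 77.0 to 109 CPM with PBS. In Aire-stage cluster 2 all adipocyte markers but Lep had UMIs, with sums of 76.1 to 88.4 CPM with spermidine and 61.7 to 101 CPM with PBS. All 10 endothelial markers had UMIs there, with sums of 80.0 to 137 CPM with spermidine and 76.8 to 123 CPM with PBS. The part of these markers in the Fabp4 level was not tested. Adipoq, the adipocyte hormone, was highest in Aire-stage cluster 2 at a mean of 16.1 CPM.

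Fabp5, the epidermal binding protein, was also highest in microfold-like cells, at 12320.2 and 12943 CPM with spermidine and 15947 and 13151 CPM with PBS. Cluster 13 (9049.7 ± 1148 CPM) lay below them and above cluster 4 (6895 ± 696 CPM). Keratinocyte-like cells, the class closest to the tissue that gave Fabp5 its name, ranked seventh of 10 at 4576 ± 681 CPM. Immature-like, neuroendocrine-like and tuft-like cells each lay apart from the class above, at 1833 ± 481, 524 ± 168 and 268 ± 30.8 CPM. In thinned cells 69.8% of thymocyte-like cells held Fabp5, more than the 51.7% of tuft-like cells and the 66.0% of neuroendocrine-like cells. Whether thymocyte-like cells express Fabp5 themselves was not tested, so for this gene they give no clear background.

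Fabp9, a testis protein of the sperm head, was spread over several classes with wide ranges. Cluster 13 stood at 932 and 209 CPM with spermidine and 641 and 761 CPM with PBS. Aire-stage cluster 3 stood at 530.0 and 393 CPM with spermidine and 557 and 643 CPM with PBS. Microfold-like cells ranged most, at 168 and 325 CPM with spermidine and 900.1 and 473 CPM with PBS. Aire-stage cluster 2 had only 59.7 ± 21.7 CPM and cluster 4 only 3.79 ± 1.53 CPM, each with no overlap with Aire-stage cluster 3.

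Fabp12, known from retina and testis of the rat, was at similar levels in all samples of cluster 13, at 143 and 129 CPM with spermidine and 157 and 129 CPM with PBS. Aire-stage cluster 3 overlapped it at 142 and 134 CPM with spermidine and 107 and 154 CPM with PBS. Microfold-like cells followed at 128 and 69.0 CPM with spermidine and 106 and 85.5 CPM with PBS. Cells with 10 or more UMIs of Fabp12 carried 54.7% of its UMIs in cluster 13 (10 of 98 cells) and 43.2% in Aire-stage cluster 3 (25 of 510 cells).

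Over the means of the 15 classes, on a log2(CPM + 1) scale, Fabp4 and Fabp12 were each other's closest match among 18906 genes (Pearson r = 0.955). Fabp4 correlated with Fabp9 at 0.805 and with Fabp5 at 0.803, and Fabp9 with Fabp12 at 0.846. Fabp5 correlated with Fabp12 at 0.801 but with Fabp9 at only 0.566. That was below pairs that are not neighbours, such as Fabp2 with Fabp12 (0.685) and Fabp1 with Fabp4 (0.61). Away from chromosome 3, Fabp3 correlated with Fabp7 at 0.799 and with Fabp6 at 0.796. Fabp1 and Fabp2, which lie on different chromosomes, were correlated at 0.83. These are descriptions over classes that share libraries and depth, and carry no p-value.

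**Figure D4:**
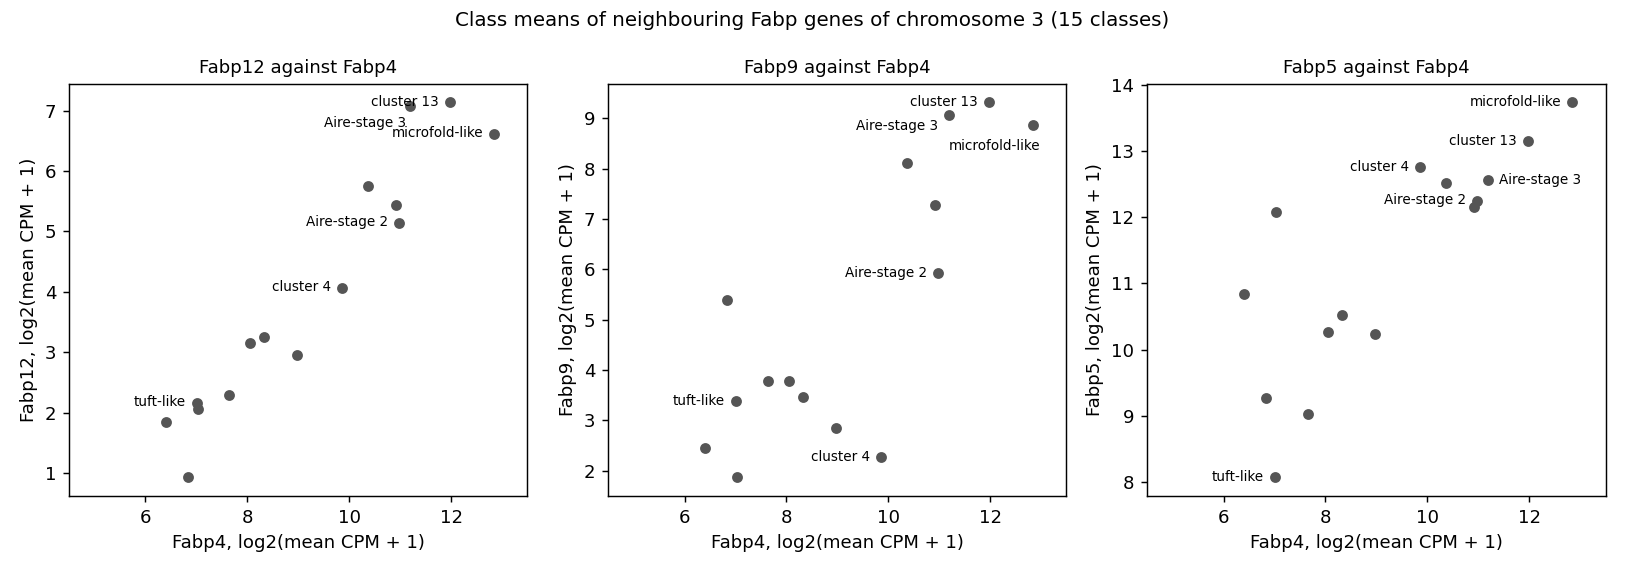
Mean level of Fabp12, Fabp9 and Fabp5 against that of Fabp4 in the 15 classes, each axis as log2(mean CPM + 1) over 4 hashed samples, 1 point per class. Fabp12 followed Fabp4 most closely (r = 0.955), while cluster 4 held Fabp4 at 931 CPM and Fabp9 at 3.79 CPM.

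Detection of the neighbouring genes also went together within cells of a class, as it did for Fabp1 and Fabp2 on different chromosomes. In 413 thinned cells of Aire-stage cluster 3, Fabp9 was detected in 36.9% of 312 cells with Fabp4 and in 12.9% of 101 cells without, and Fabp12 in 37.8% and 21.8% of the same cells. Fabp9 was detected in 44.3% of 140 cells with Fabp12 and in 24.2% of 273 cells without. In cluster 13, Fabp9 was detected in 41.8% of 67 cells with Fabp4 and in 10.0% of 20 cells without. Fabp6, on another chromosome, was set beside Fabp4 in a different class. It was detected in 21.0% of the 452 thinned cells of Aire-stage cluster 2 with Fabp4 and in 25.1% of 223 cells without. Cells are not replicates, and a link of these shares to gene position was not tested.

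Genes outside the family with the most similar class pattern were chosen by correlation over the same 15 means. They were Dao (0.931), Trim43a and Gm39157 for Fabp1, and Uts2b (0.916), Bcl2a1c and Nostrin for Fabp2. They were Wscd2 (0.905), Fndc8 and Gm5177 for Fabp3, and Srxn1 (0.914) and Sncg after Fabp12 for Fabp4. For Fabp5 they were Gm18103 (0.958), Eif2s2 and Skint4, and for Fabp6 Angptl7 (0.937), Cpz and Rcvrn. For Fabp7 they were Gm28175 (0.869), Rac3 and Cth, for Fabp9 Tmem171 (0.914), Acot4 and Ces2c, and for Fabp12 Tmcc3 (0.924) and Srxn1 after Fabp4. With 15 points and 18906 genes, high values arise for every gene searched.

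Of the relatives of the family that bind retinoids, Crabp1 and Rbp7 were highest among the 10 classes in Aire-stage cluster 2. Crabp1 stood at 224 and 305 CPM in Aire-stage cluster 2 of the spermidine samples, against 188 and 116 CPM in the PBS samples, and no sample of the other 9 classes exceeded 44.98 CPM. Rbp7 averaged 36.5 CPM there. Among the 58 ciliated-like cells, too few to fit, single samples reached 397 CPM of Crabp1 and 177 CPM of Rbp7. Hnf4g, a nuclear receptor of intestinal epithelium, averaged 714 CPM in microfold-like cells and 480.2 CPM in enterocyte/hepatocyte-like cells.

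Spermidine was then compared with PBS within each class by edgeR's quasi-likelihood test on UMI sums, adjusted over all genes of the class. None of the 59 gene and class pairs that passed the low-count filter was called at an adjusted p of 0.05, and 31 of the 90 pairs were too low to test. Over all genes the calls were few as well: 0.0% in Aire-stage clusters 2 and 3, cluster 13 and enterocyte/hepatocyte-like cells, 0.00809% in cluster 4, 0.0198% in immature-like, 0.0568% in keratinocyte-like, 0.0356% in microfold-like, 0.00909% in neuroendocrine-like and 0.253% in tuft-like cells. At an unadjusted p below 0.05 there were 13 of the 59 pairs (22.0%), against 6.0% of all 111072 gene tests. The pairs share cells and samples and are not independent. With the merged Aire-stage clusters added, DESeq2 called 2 of 68 pairs, both Fabp1 (0.199% of all gene tests), and the fit without a low-count filter called 11 of 96 (0.69%). Single libraries changed the count too: 4 of 74 pairs were called without spermidine replicate 1 (0.566% of all gene tests), 1 of 75 without spermidine replicate 2 (0.384%), 3 of 74 without PBS replicate 1 (0.208%) and 0 of 75 without PBS replicate 2 (0.0917%). With a replicate left out, its group rests on 1 sample, assumed to vary like the other group.

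The lowest adjusted p-values belonged to Fabp1 in tuft-like cells (log2 fold change -0.39 ± 0.12 SE, edgeR adjusted p = 0.227) and Fabp12 in keratinocyte-like cells (1.30 ± 0.26, adjusted p = 0.229). Tuft-like Fabp1 stood at 33.8 and 38.5 CPM with spermidine, against 48.2 and 47.2 CPM with PBS. Keratinocyte-like Fabp12 stood at 58.1 and 62.9 CPM with spermidine, against 28.9 and 19.3 CPM with PBS. Both pairs were picked by their p-values, so the separation of their samples adds no further evidence. Fabp3 in Aire-stage cluster 3 followed (log2 3.17 ± 0.52, adjusted p = 0.274) on 75 UMIs in 11 cells.

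Fabp1 in Aire-stage cluster 2 stood at 52.8 and 28.1 CPM in the spermidine samples and 119 and 199 CPM in the PBS samples. Its log2 fold change was -1.96 ± 0.41, with an adjusted p of 0.869 in edgeR and of 0.000533 in DESeq2, which called 0.334% of genes there. With the clusters together the value was -1.05 ± 0.22 (adjusted p = 0.677 in edgeR and 0.0147 in DESeq2, which called 0.416%). The transcript came from 94 of 719 cells, and the highest of them held 315 of 1403 UMIs. Without that cell PBS replicate 2 stood at 91.2 CPM, still above both spermidine samples.

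In their leading classes the other members gave differences that were not called. The log2 fold changes were -0.18 ± 0.21 for Fabp1, -0.50 ± 0.17 for Fabp4 and -0.23 ± 0.16 for Fabp5 in microfold-like cells. In Aire-stage cluster 2 they were -0.19 ± 0.12 for Fabp6, -0.47 ± 0.82 for Fabp3 and 0.52 ± 0.44 for Fabp7, and in cluster 13 -0.39 ± 0.67 for Fabp9 and -0.14 ± 0.26 for Fabp12. Fabp9 in microfold-like cells reached -1.51 ± 0.45 with an edgeR adjusted p of 0.999, and -0.97 ± 0.24 without PBS replicate 1, which left 1 PBS sample. Without the cell of the class with the most Fabp9 UMIs, PBS replicate 1 fell from 900.1 to 524 CPM. Fabp4 was lower with spermidine in 8 of 10 classes, with a median log2 fold change of -0.32, none called. The median over all genes lay between -0.0055 and 0.0045 in the fits of the separate classes.

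**Figure D5:**
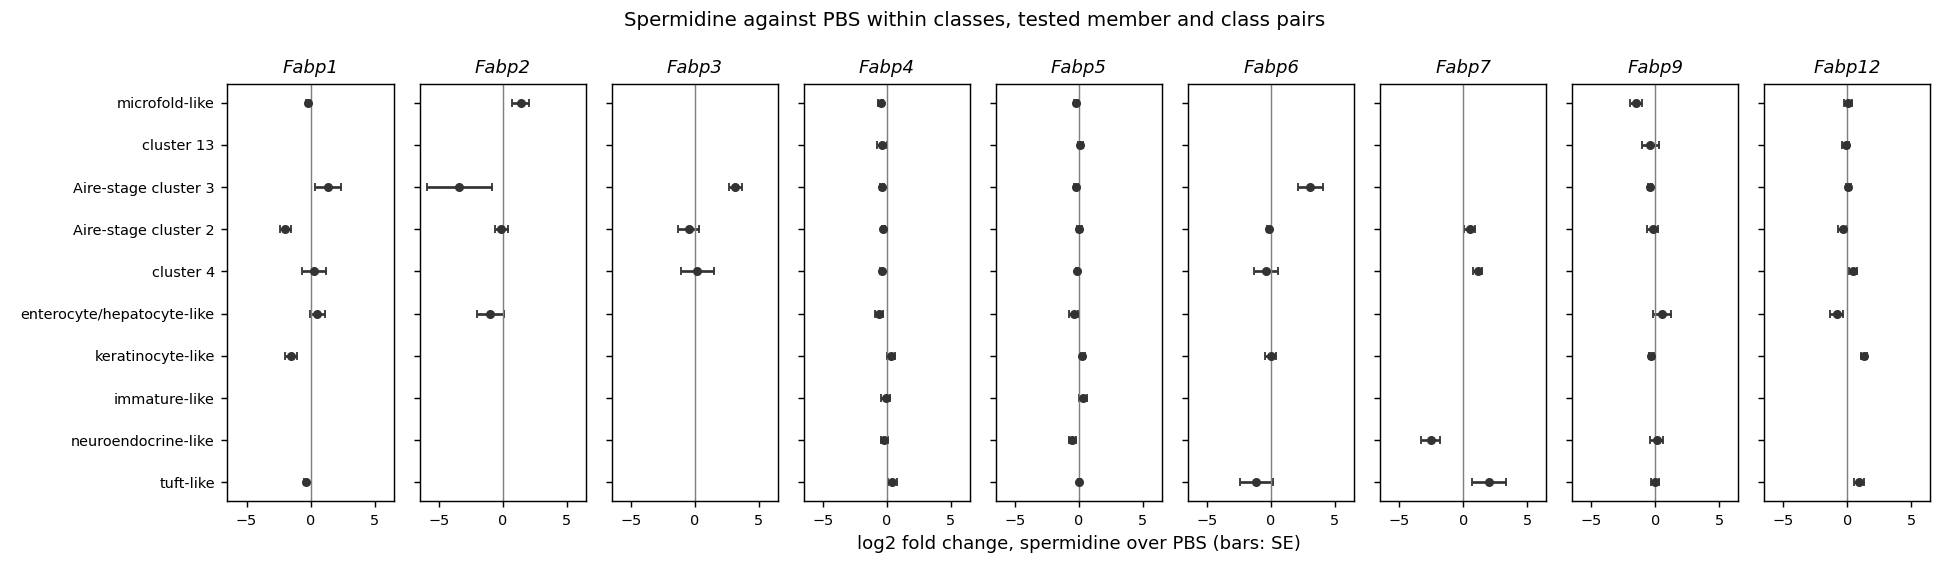
Log2 fold change (spermidine over PBS) of the tested genes in 10 classes, with bars for the standard error. The fold changes of Fabp4 lay between -0.58 and 0.43, below 0 in 8 of 10 classes, and those of Fabp5 between -0.51 and 0.32. Genes carried by a few cells, such as Fabp2 and Fabp3 in Aire-stage cluster 3, ranged more widely, from -3.40 to 3.17.

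The share of thinned cells with a member's transcript was also compared. In the leading classes the difference (spermidine minus PBS) lay between -7.96 percentage points for Fabp4, at 92.0% and 100% of microfold-like cells, and 3.06 points for Fabp1, at 64.7% and 61.6%. The exact two-sided permutation test over 2 against 2 samples cannot go below p = 0.333, which Fabp4 and Fabp7 reached. Of the 9 differences, 7 changed sign under at least 1 other setting.

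Of 6 lists of lipid genes chosen with earlier results in view (relatives of the family, uptake and activation, storage and release, oxidation, regulators and ileal bile acid handling), 1 gene was called in any class. Acsl3, which activates fatty acids, was higher in tuft-like cells, at 178 and 193 CPM with spermidine against 137 and 141 CPM with PBS (log2 0.44 ± 0.07, edgeR adjusted p = 0.0365). Calls there made up 0.253% of all genes tested, and the list genes were not refitted under other settings. Acsl3 was 1 of 9 tested of the 14 uptake and activation genes, whose median log2 fold change there was 0.07, against -0.0024 over all genes tested. In the Aire-stage clusters together no gene of the lists was called, and 0.0% of all genes (edgeR: 1160 at an unadjusted p below 0.05, and 76 called by DESeq2). There Crabp1 (0.97 ± 0.27) and Rbp7 (0.79 ± 0.27) had the smallest p of the 6 relatives tested, whose median was 0.91. Slc51a (1.02 ± 0.15) and Nr1h4 (0.32 ± 1.01) had it among bile acid genes, Slc27a6 (4.75 ± 1.05) and Acsl6 (0.71 ± 0.43) among uptake genes, and Cidea (-2.61 ± 0.59) and Plin1 (1.73 ± 0.69) among storage genes. Hadhb (-0.34 ± 0.10) and Etfdh (-0.32 ± 0.14) had it in oxidation, and Ppara (1.11 ± 0.50) and Nr1h3 (0.46 ± 0.23) among regulators, with adjusted p-values from 0.586 to 0.979 over these 12 genes.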

How the data were processed

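Single-cell RNA was measured in 4 hashed samples of 1 droplet run. The deposited matrices hold UMI counts per gene and barcode and counts per hashtag as the authors obtained them. The file headers name Cell Ranger 7.1.0. The submitters' processing notes also name bcl2fastq, Seurat and mm10.

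Hashtags were called with Seurat 5.3.0 from the 4 labelled hashtags. Of 12139 barcodes, 8534 had at least 1000 UMIs, 500 genes and under 15% mitochondrial UMIs, and 4709 were assigned to a sample. The 1027 hashtag doublets and 2798 unassigned cells were left out of all comparisons, doublets were not sought in the RNA, and 11 of 15 hashtags had no labelled sample. Cells were clustered with scanpy 1.11.5 (Leiden resolution 1.0) and classes were named from marker lists. Each barcode of the run was given to at most 1 sample, so none could occur in more than 1.

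UMIs were summed per sample and class. Classes with at least 20 cells in every sample were tested with edgeR 4.0.16 (TMM scaling, low-count filter, quasi-likelihood, Benjamini-Hochberg), and DESeq2 1.42.0 was an alternative. Class levels were described without a test. Gene positions come from the GENCODE annotation of GRCm38. Levels are 3' UMIs and were not compared between genes.

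All 9 members are named, with the 3 genes most like each and the 2 of each list with the smallest p. The members and lists were chosen with earlier results of these data known.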

Additional observations from a re-analysis of the deposited data

Results flagged for a closer look

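Fabp2 in Aire-stage cluster 3 stood at 25.6 and 5.21 CPM in the spermidine samples and at 347 and 0.582 CPM in the PBS samples, so that PBS replicate 1 lay far from the others. A single cell held 561 of its UMIs, and without it that sample stood at 12.53 CPM. The leading class levels of 9 genes were examined this way, and chance sets a sample apart in about 1 of 20 groups.

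Hashtags HT6 and HT7, which the labels tie to no sample, took 22.2% and 8.66% of all hashtag counts. Of the assigned cells, 897 were called doublets when both were added to the calling.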

How the results depend on the processing

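Of 224 alternatives to the log2 fold changes of 23 gene and class pairs (leading classes and pairs with an unadjusted p below 0.05, so chosen after the values were seen), 203 kept direction and call, 10 reversed and 11 became called. Of 72 alternatives to the 9 differences in shares, 28 reversed. Depth limits the low members: Fabp2 and Fabp3 rest on few cells. The cause of the changes below was not tested.

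Genes called at an adjusted p of 0.05 were 0 in Aire-stage clusters 2 and 3, cluster 13, enterocyte/hepatocyte-like cells and the merged clusters, 1 in cluster 4, 2 in immature-like, 6 in keratinocyte-like, 3 in microfold-like, 1 in neuroendocrine-like and 35 in tuft-like cells. DESeq2 called 57, 21 and 12 in Aire-stage clusters 2 and 3 and cluster 13, 17 each in cluster 4 and enterocyte/hepatocyte-like, 12 in keratinocyte-like and 11 in neuroendocrine-like cells, and 76 in the merged clusters. With no low-count filter the counts were 124 and 226 in Aire-stage clusters 2 and 3, 223 in cluster 13, 313 in cluster 4, 139 in enterocyte/hepatocyte-like, 91 in immature-like, 226 in keratinocyte-like, 81 in microfold-like, 151 in neuroendocrine-like and 361 in tuft-like cells, and 63 in the merged clusters. Replicate numbers came without a stated pairing, and deviations of same-numbered samples correlated at -0.117 to 0.146. The replicate block gave 1 call in Aire-stage cluster 3, 0 in cluster 4, 5 in enterocyte/hepatocyte-like, 0 in immature-like, 1 in keratinocyte-like, 5 in microfold-like and 5 in neuroendocrine-like cells. Leaving out 1 replicate gave 1 to 48 calls in Aire-stage cluster 3, 2 to 15 in cluster 13, 0 to 24 in cluster 4, 20 to 60 in enterocyte/hepatocyte-like, 9 to 138 in immature-like, 13 to 106 in keratinocyte-like, 31 to 102 in microfold-like, 32 to 124 in neuroendocrine-like and 10 to 265 in tuft-like cells, and 0 to 1 in the merged clusters.

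With the 2 further hashtags in the calling, calls were 6 in Aire-stage cluster 3, 9 in cluster 4, 2 in enterocyte/hepatocyte-like, 0 in immature-like, 1 in keratinocyte-like and 1 in microfold-like cells. The log2 fold changes of Fabp2 in Aire-stage cluster 3 and Fabp12 in cluster 13 turned to 1.08 and 0.16, the share differences of Fabp1, Fabp9 and Fabp12 to -4.41, -7.21 and 5.25 points, Fabp12 in cluster 13 stood at 177 CPM, the share of Fabp6 at 22.8%, and 1 leading class stood apart. Under the margin rule 0 genes were called in keratinocyte-like cells. The log2 fold changes of Fabp9 and Fabp12 in cluster 13 and Fabp7 in cluster 4 turned to 0.18, 0.016 and -0.79, the share differences of Fabp1, Fabp2 and Fabp12 to -0.57, -0.84 and 4.29 points, the share of Fabp6 was 23.8%, and 2 leading classes stood apart.

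Capping counts per cell gave 4 calls in Aire-stage cluster 3, 1 in cluster 13, 9 in cluster 4, 8 in enterocyte/hepatocyte-like, 5 in immature-like, 13 in keratinocyte-like and 10 in neuroendocrine-like cells. Leading levels were then 1064, 4659 and 9802 CPM for Fabp1, Fabp4 and Fabp5, 468 and 26.8 CPM for Fabp6 and Fabp7, and 118 CPM for Fabp12. Fabp6 stood at 604 CPM at resolution 0.5, and Fabp12 at 155 CPM with Fabp genes in the clustering.

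Without thinning the shares were 73.4% for Fabp1, 11.3% for Fabp3, 99.6% for Fabp5, 32.0% for Fabp6, 16.9% for Fabp7, 46.7% for Fabp9 and 51.8% for Fabp12, and the differences of Fabp1, Fabp3, Fabp5, Fabp6 and Fabp9 were -6.88, 0.23, -0.83, 1.55 and -3.60 points. Thinned to 2500 UMIs the shares were 58.4% for Fabp1, 90.3% for Fabp4, 98.0% for Fabp5, 17.1% for Fabp6 and 3.80% for Fabp7, and the differences of Fabp1, Fabp3, Fabp5, Fabp6, Fabp9 and Fabp12 were -4.77, 0.49, -2.17, 0.0598, -8.82 and 6.55 points. Leaving out 1 replicate moved the log2 fold changes of Fabp1 in microfold-like cells between -0.54 and 0.11, of Fabp2 in Aire-stage cluster 3 between -5.06 and 4.64, of Fabp3 in Aire-stage cluster 2 between -2.19 and 0.28 and of Fabp9 in cluster 13 between -1.81 and 0.30. It moved the share differences between -1.63 and 7.76 points for Fabp1, -1.73 and 1.76 for Fabp2, -3.25 and 1.86 for Fabp3, -0.34 and 0.31 for Fabp6, -6.52 and 9.07 for Fabp9 and -7.06 and 3.54 for Fabp12.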
